A study of Mus musculus with 14 samples.

Results

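Genes that make, package, take up and break down GABA, the main inhibitory transmitter of the cortex, were followed by bulk RNA sequencing of the anterior cingulate cortex (frontal cortex near the midline). They are Gad1, Gad2, Slc32a1, Slc6a11, Abat and Aldh5a1. They were chosen by function, with earlier results of these data known. The members are the rows of the count tables whose Ensembl identifier carries those symbols, and make up 6 of 53465 rows. The tissue came from 2 inbred strains, AKR/J (called AKR here) and C57BL/6NJ (B6N). From each strain, 4 libraries were from naive mice and 3 were from mice that had undergone observational fear conditioning (OFL), in which the animal observes a conspecific being shocked. No transgene, injected agent or deletion is named for any of the 4 groups. The labels give no ages and do not say that libraries of a group were separate animals, so the p-values reflect variation among libraries that may be only technical. By its title, the study concerns ARNT2, a transcription factor, in prefrontal somatostatin interneurons and affective empathy.

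GABA is made from glutamate by glutamate decarboxylase, which needs pyridoxal phosphate. Gad1 encodes the larger decarboxylase, which supplies most of the GABA in the cell body, and Gad2 the smaller one, which is concentrated at nerve terminals. Slc32a1 encodes the carrier that loads GABA into synaptic vesicles. After release, GABA is cleared from the extracellular space by plasma membrane carriers, of which the Slc6a11 product is found mainly on astrocytes. Abat encodes GABA transaminase, which turns GABA into succinate semialdehyde inside mitochondria, and Aldh5a1 encodes the dehydrogenase that oxidises this to succinate for the citric acid cycle.

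On GRCm38, 3 of the genes lie on chromosome 2 and all but Aldh5a1 are on the plus strand. Gad1 (ENSMUSG00000070880) spans chromosome 2 from 70553072 to 70602014. Gad2 (ENSMUSG00000026787) spans 22622205 to 22693874 of the same chromosome, and Slc32a1 (ENSMUSG00000037771) spans 158610767 to 158615748. Slc6a11 (ENSMUSG00000030307) spans chromosome 6 from 114131241 to 114249952, Abat (ENSMUSG00000057880) chromosome 16 from 8513429 to 8621568, and Aldh5a1 (ENSMUSG00000035936) chromosome 13 from 24907579 to 24937661 on the minus strand. Gad1 and Gad2 share no stretch of 31 exonic bases, so their reads can be told apart at that length. Gad1 shares 3.78% of its stretches with its pseudogene Gad1-ps, which received 1 to 12 counts per library. Exons of the opposite strand cover 24.9% of the exonic bases of Slc32a1 and 17.7% of those of Aldh5a1. Whether counting used strand is not given in the sources used here. The antisense partner of Slc32a1, Gm14205, received 0 to 2 counts in any library. Of the partners of Aldh5a1, 9330162012Rik received 3.30% to 4.23% of the Aldh5a1 count in naive libraries and 5.49% to 6.61% in OFL libraries. The other, 4932702P03Rik, received 0.904% to 2.01% and 0.0765% to 0.280%.

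The 250 bases before the transcription start are shown for Slc32a1 and Slc6a11, the members with the largest difference between OFL and naive libraries, and for Aldh5a1, whose difference did not pass the test. The sequences are from RefSeq on GRCm38.p6 and read 5′ to 3′ on the strand of the gene. The windows lie at chr2:158610508-158610757 (plus strand), chr6:114130991-114131240 (plus strand) and chr13:24937662-24937911 (minus strand), in that order. Capitals mark every match, on either strand, to ACGTG or TCGTG, which are among the 5-base cores that dimers of the ARNT family can bind. Other cores of that family were not searched for. None of the matches overlap.
Slc32a1: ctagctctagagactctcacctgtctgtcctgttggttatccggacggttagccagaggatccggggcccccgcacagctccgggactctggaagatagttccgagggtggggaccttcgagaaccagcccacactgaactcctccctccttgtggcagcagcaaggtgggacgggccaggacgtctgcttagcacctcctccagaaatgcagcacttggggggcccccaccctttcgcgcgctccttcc
Slc6a11: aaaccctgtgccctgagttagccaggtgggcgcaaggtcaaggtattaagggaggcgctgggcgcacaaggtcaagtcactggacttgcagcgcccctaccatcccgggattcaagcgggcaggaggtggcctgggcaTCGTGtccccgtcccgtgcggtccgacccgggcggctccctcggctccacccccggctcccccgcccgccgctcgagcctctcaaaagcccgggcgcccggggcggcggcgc
Aldh5a1: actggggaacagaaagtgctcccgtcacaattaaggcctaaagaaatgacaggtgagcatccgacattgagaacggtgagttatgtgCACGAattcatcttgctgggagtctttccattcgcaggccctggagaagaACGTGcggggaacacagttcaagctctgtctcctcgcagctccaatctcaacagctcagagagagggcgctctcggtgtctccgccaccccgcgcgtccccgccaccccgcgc

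The Slc32a1 window held neither core, the Slc6a11 window held 1 TCGTG core, and the Aldh5a1 window held 1 of each. Windows were also available for Gad1 and Gad2, with 1 TCGTG core each, but not for Abat. The Gad1 and Gad2 windows run from the RefSeq start and overlap annotated exons of their own gene by 87 and 122 of 250 bases, so they are not wholly upstream. Counting them, 4 of 5 windows had ACGTG or TCGTG, against 27.2% of 32851 mouse windows of the same length. Those windows were not matched for G and C content, and enrichment was not tested. TAATTA, a core of homeodomain proteins such as the DLX factors of interneurons, was in none of the 5 and in 4.84% of all windows. GGGCGG, a GC box, occurred 3 times in the Slc6a11 window and once in that of Gad1, and was present in 32.7% of all windows. The 5 windows were 57.2% to 71.2% G or C, above the median of 52.4%. These matches describe the letters only, and no binding was measured.

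Total counts per library were 19073921 to 25780227 in the naive groups and 13487311 to 14526253 in the OFL groups, and the lowest count of any member in any library was 332, for Slc32a1. The naive and OFL libraries came in separate count tables and differed in RNA classes. Genes of the mitochondrial genome took 1.56% to 1.90% of naive counts and 0.752% to 0.850% of OFL counts. Histone cluster genes, whose messages mostly lack a poly(A) tail, took 0.0045% to 0.0063% and 0.0348% to 0.0373%. Condition and table therefore cannot be told apart in any difference between OFL and naive libraries. Comparisons of the strains were made within 1 table. Libraries of both strains were aligned to GRCm38, and whether their reads align to it equally well was not tested. Markers of cortical glutamatergic neurons (6 genes, summed level 2121 to 5123 CPM) and of interneurons (12 genes, 782 to 920 CPM) were present in every library. Markers of choroid plexus summed to at most 5.28 CPM, with Ttr and Folr1 at 0 in at least 1 library of each group. Markers of the neighbouring striatum, itself rich in GABA neurons, summed to 89.7 to 145 CPM over 7 genes. In bulk tissue, fewer cells of a type and less RNA per cell cannot be told apart.

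Levels are given as CPM, counts scaled to a common library size, with TMM factors, which correct library sizes for composition. Genes are compared only after division by exon length in kb. That length merges the exons of all annotated transcripts of a gene, whether or not each is used in this tissue. The order of genes on this scale, and the gaps between them, depend on that length. On that scale Gad1 was the highest member in all 4 groups, at means of 46.2 CPM per kb in naive AKR, 43.4 in naive B6N, 37.5 in AKR after OFL and 34.7 in B6N after OFL. The order below it differed between groups. In naive AKR it was Slc6a11 (38.8 CPM per kb), Gad2 (33.2), Slc32a1 (29.5), Abat (26.8) and Aldh5a1 (16.1), with library values overlapping between Gad2 and Slc32a1 and between Slc32a1 and Abat. In naive B6N Abat (34.2) and Slc6a11 (34.0) followed Gad1 with overlapping libraries, and Slc32a1 (24.0) and Aldh5a1 (15.4) were lowest. In AKR after OFL the order was Gad2 (26.5), Abat (21.8), Aldh5a1 (16.8), Slc6a11 (14.5) and Slc32a1 (11.4), with no overlap between neighbours. In B6N after OFL Abat (26.5) stood above Gad2 (23.5), and again Slc6a11 (13.6) and Slc32a1 (9.13) were below Aldh5a1 (15.7). Slc6a11 thus stood above Gad2 in naive libraries and below Aldh5a1 in OFL libraries of both strains.

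**Figure D1:**
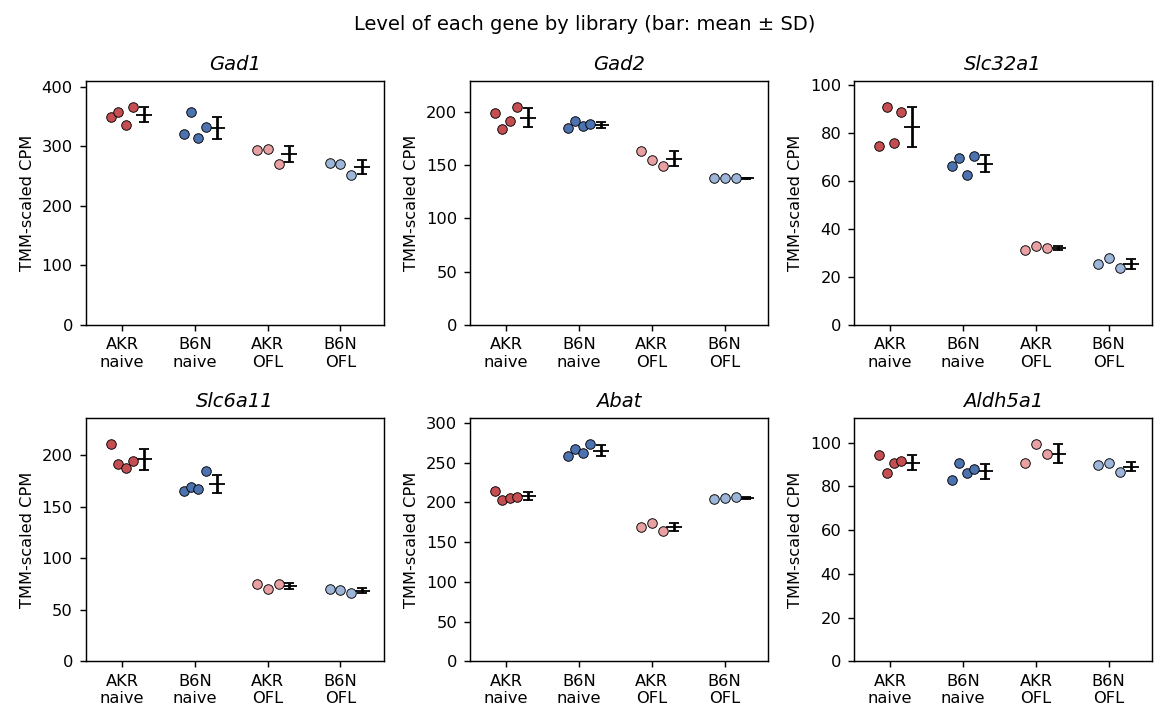
TMM-scaled CPM (vertical axis, from 0) of each member in the 14 libraries, by strain and condition; points are libraries and bars are the mean ± SD over 4 naive or 3 OFL libraries. Slc32a1 and Slc6a11 were lower in every OFL library than in any naive library, Abat was lower in AKR than in B6N within each condition, and the Aldh5a1 groups overlapped between conditions.

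In naive mice the strains differed in the genes of vesicular packaging, astrocytic uptake and the first step of breakdown, and not in the same direction. Slc32a1 and Slc6a11 were higher in AKR, by 1.23-fold and 1.14-fold, and Abat was lower in AKR by 1.28-fold. Of the 6 members, 2 were called higher and 1 lower in AKR at an adjusted p under 0.05, in a comparison in which 37.8% of all 17645 genes tested were called (18.3% higher, 19.5% lower), so 3 of 6 is near the background. The libraries of 3 members did not overlap between strains, against 34.7% of all genes. After OFL the count was again 2 higher and 1 lower, against 16.4% of 17994 genes (7.5% higher, 8.86% lower), and 4 members did not overlap, against 31.2%. Slc32a1 and Abat were called in both conditions. The tests are edgeR's quasi-likelihood F-test with Benjamini-Hochberg adjustment over all genes, and each log2 difference below is AKR minus B6N with its standard error (SE).

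The decarboxylase genes differed little between strains. Gad1 in naive AKR was 350.4, 359, 337 and 366 CPM, and in naive B6N it was 321, 357, 314 and 333 CPM. These groups overlapped through B6N replicate 2, and the log2 difference was 0.09 (SE 0.04, 95% interval 0.01 to 0.18, adjusted p = 0.0799). Leaving out that library took it to 0.13 with an adjusted p of 0.00941, and leaving out AKR replicate 3 to 0.12 with 0.0458, so the call turns on single libraries. After OFL, Gad1 was 293, 296 and 271 CPM in AKR and 272, 271 and 252 CPM in B6N, a log2 difference of 0.10 (SE 0.05, adjusted p = 0.148) with overlapping groups.

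Gad2 in naive libraries was 199, 184, 191 and 205 CPM in AKR and 185, 191, 187 and 189 CPM in B6N. The B6N values lay inside the AKR range, and the difference was 0.05 (SE 0.04, 95% interval -0.02 to 0.13, adjusted p = 0.268). After OFL it was 163, 155 and 149 CPM in AKR, above all 3 B6N libraries at 138 CPM each, and the log2 difference of 0.17 (SE 0.05, adjusted p = 0.0181) passed the test. It no longer passed without AKR OFL replicate 1 (0.13, adjusted p = 0.146) or without B6N OFL replicate 2 (0.17, adjusted p = 0.0886). The strain difference of Gad2 was not shown to differ between conditions (difference of 0.12, SE 0.06, adjusted p = 0.269).

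Slc32a1, the vesicular carrier, was 74.7, 90.9, 75.8 and 88.9 CPM in naive AKR and 66.4, 69.5, 62.5 and 70.3 CPM in naive B6N. Every AKR library was above every B6N library, although AKR replicates 1 and 3 were close to the highest B6N value. The log2 difference was 0.30 (SE 0.06, adjusted p = 0.00064). After OFL the levels were 31.2, 32.9 and 31.9 CPM in AKR and 25.4, 27.7 and 23.5 CPM in B6N, again without overlap, and the difference was 0.32 (SE 0.07, adjusted p = 0.0046).

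Slc6a11, the astrocytic GABA carrier, was 211, 191, 188 and 195 CPM in naive AKR against 166, 169, 168 and 185 CPM in naive B6N. The groups did not overlap, with B6N replicate 4 close to the lowest AKR library, and the log2 difference was 0.19 (SE 0.04, adjusted p = 0.0018). After OFL the values were 75.0, 70.3 and 74.9 CPM in AKR and 70.6, 69.1 and 66.3 CPM in B6N. They overlapped, and the difference of 0.09 (SE 0.05, 95% interval -0.03 to 0.20, adjusted p = 0.325) did not pass. Of 8 astrocyte markers in naive libraries, 1 was higher and 3 were lower in AKR, among them the glutamate carrier gene Slc1a2 (log2 difference -0.22). Their summed levels were 3618 to 4202 CPM in AKR and 4064 to 4417 CPM in B6N, mostly from Slc1a2 (means of 2142 and 2501 CPM). Among all genes, 18.3% were called higher and 19.5% lower in naive AKR. The part of these markers in the Slc6a11 difference was not tested.

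Abat, which starts GABA breakdown, had the smallest adjusted p of the 6 between strains in both conditions. It was 215, 203, 206 and 207 CPM in naive AKR and 258, 268, 262 and 274 CPM in naive B6N. The highest AKR library was below the lowest B6N library, with a log2 difference of -0.35 (SE 0.03, adjusted p = 2.2e-07). After OFL it was 169, 174 and 164 CPM in AKR and 204, 205 and 207 CPM in B6N, a difference of -0.29 (SE 0.04, adjusted p = 8.0e-05).

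Aldh5a1, the next enzyme, showed no called strain difference. Its naive levels were 94.3, 86.2, 90.7 and 91.7 CPM in AKR and 82.7, 90.6, 86.2 and 87.7 CPM in B6N, overlapping, with a log2 difference of 0.07 (SE 0.04, 95% interval -0.02 to 0.15, adjusted p = 0.215). After OFL the AKR libraries, at 90.6, 99.4 and 94.7 CPM, were all just above the B6N libraries, at 89.6, 90.5 and 86.6 CPM. That difference of 0.09 (SE 0.05, 95% interval -0.02 to 0.20) had an adjusted p of 0.299.

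Some interneuron markers were also higher in AKR. In naive libraries 4 of 12 were higher in AKR, with the calcium-binding protein gene Pvalb at a log2 difference of 0.32, and 1 was lower, the peptide gene Vip at -0.24. Their summed levels were 875 to 920 CPM in AKR and 799 to 886 CPM in B6N. After OFL 3 of 12 were higher, Sst at 0.17, Pvalb at 0.48 and Adarb2 at 0.54, and none was lower. The sums were then 828 to 886 CPM in AKR and 782 to 790 CPM in B6N. Striatal markers were not higher in AKR in either condition, with 2 of 7 lower in naive libraries and 1 of 6 lower after OFL. As background, 18.3% of all genes were called higher and 19.5% lower in naive AKR, and 7.5% and 8.86% after OFL. The part of the interneuron markers in the differences of Slc32a1 and Gad2 was not tested.

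**Figure D2:**
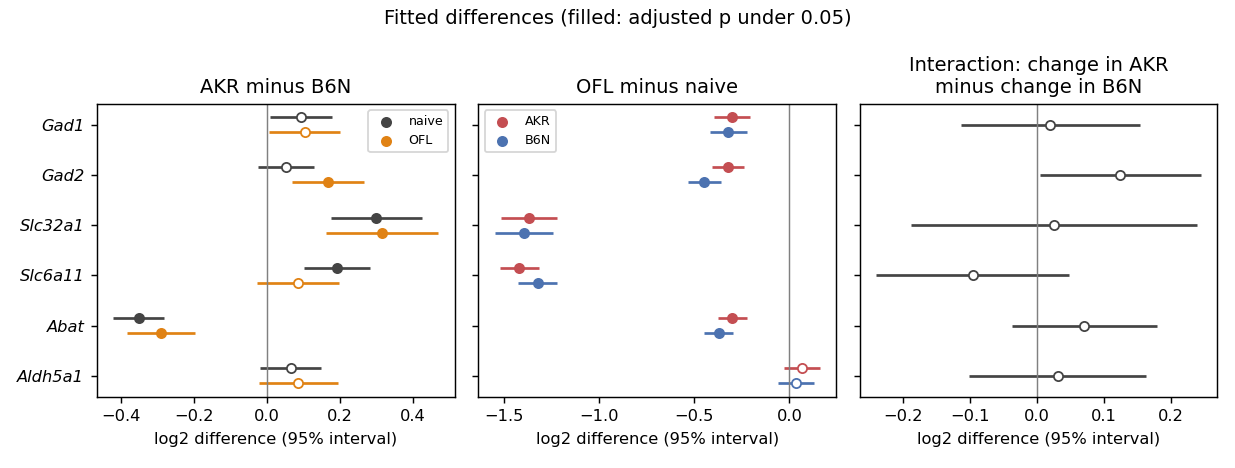
Fitted log2 differences (horizontal axes) of the 6 members with 95% intervals: AKR minus B6N in naive and OFL libraries, OFL minus naive in each strain, and the interaction. Filled points passed an adjusted p under 0.05; Abat lies left of 0 and Slc32a1 right of 0 in both conditions, Slc32a1 and Slc6a11 lie below -1 for OFL minus naive, and no interaction passed.

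Between conditions, 5 of the 6 members were lower in OFL than in naive libraries in each strain, and they fell by different amounts. Slc32a1 fell 2.59-fold in AKR and 2.63-fold in B6N, and Slc6a11 fell 2.67-fold and 2.50-fold. Gad1, Gad2 and Abat fell by at most 1.36-fold, and Aldh5a1 was not called. As background, 78.7% of 20291 genes were called in AKR (38.8% lower) and 78.4% in B6N (38.4% lower). No overlap between conditions was seen for 76.7% of genes in AKR, as in B6N (76.7%), so a call by itself says little here. The size of a difference cannot be told apart from the table either, and the share of all genes with differences of these sizes was not computed. Since OFL and naive libraries stand in different tables, what follows compares those libraries.

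For Slc32a1 the log2 difference, OFL minus naive, was -1.37 (SE 0.07, adjusted p = 1.1e-15) in AKR and -1.40 (SE 0.07, adjusted p = 1.6e-15) in B6N. For Slc6a11 it was -1.42 (SE 0.05, adjusted p = 2.6e-19) in AKR and -1.32 (SE 0.05, adjusted p = 1.2e-18) in B6N. The highest OFL library was below the lowest naive library for both genes in both strains.

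Gad1 differed by -0.30 in AKR (SE 0.05, adjusted p = 1.5e-06) and -0.32 in B6N (SE 0.05, adjusted p = 5.6e-07). Gad2 differed by -0.32 (SE 0.04, adjusted p = 9.0e-08) and -0.45 (SE 0.04, adjusted p = 2.3e-10), and Abat by -0.30 (SE 0.04, adjusted p = 5.8e-08) and -0.37 (SE 0.04, adjusted p = 8.5e-10). The naive and OFL libraries of each strain did not overlap for these 3 genes. With protein-coding genes alone, the AKR differences shrank to -0.18 for Gad1, -0.20 for Gad2 and -0.18 for Abat, and all 3 remained called. Aldh5a1 differed by 0.07 in AKR (95% interval -0.03 to 0.16, adjusted p = 0.187) and 0.03 in B6N (95% interval -0.06 to 0.13, adjusted p = 0.489), with overlapping libraries. Under the protein-coding scaling it was called higher in both strains, at 0.19 (adjusted p = 0.00074) and 0.14 (adjusted p = 0.0089).

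Cell type markers moved with condition as well, where 38.8% of all genes were called lower in AKR and 38.4% in B6N. Of the 12 interneuron markers, 9 were lower and 3 higher in each strain, with medians of -0.70 in AKR and -0.79 in B6N. Sst, the peptide of somatostatin interneurons, differed by -1.29 and -1.38, and Dlx1, an interneuron transcription factor gene, by -1.45 and -1.83. The 3 higher genes were Reln (1.08 and 1.06), Erbb4 (1.03 and 1.07) and Adarb2 (0.96 and 1.27). The summed level of the 12 was 799 to 920 CPM in naive libraries and 782 to 886 CPM in OFL libraries. Glutamatergic markers were lower for 5 of 6 genes in AKR and 6 of 6 in B6N, and their summed level went from 4580 to 5123 CPM in naive libraries to 2121 to 2425 CPM in OFL libraries. Of 8 astrocyte markers, 5 were lower and 1 higher in AKR (median -0.25), and 6 were lower and 2 higher in B6N (median -0.30). Gfap, a filament protein gene, differed by -0.99 and -0.90, and Slc1a2 by 0.58 and 0.64. The summed astrocyte level was 3618 to 4417 CPM in naive libraries and 4425 to 5277 CPM in OFL libraries. Slc1a2 made up most of this sum, with means of 2142 CPM in naive AKR and 2501 in naive B6N. After OFL its means were 3207 and 3888 CPM, so the sum mainly follows this gene. Striatal markers were lower for 5 of 7 in each strain. The part of these markers, and of the RNA classes, in the members' differences was not tested.

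No member passed the test of a different response in the 2 strains. The interaction, the OFL minus naive difference in AKR minus that in B6N, was called for 5.15% of all genes with edgeR and for 0 members. DESeq2 also called 0, and 1 member, Gad2, had an unadjusted p under 0.05 with edgeR. Its interaction was 0.12 (95% interval 0.00 to 0.25). The others were Slc6a11 at -0.10 (-0.24 to 0.05), Abat at 0.07 (-0.04 to 0.18), Slc32a1 at 0.03 (-0.19 to 0.24), Aldh5a1 at 0.03 (-0.10 to 0.16) and Gad1 at 0.02 (-0.11 to 0.15). The interval was widest for Slc32a1.

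Ratios of members within a library do not depend on library scaling, and 4 were compared between strains in each condition by exact two-sided permutation tests, with adjustment over 8 tests. The smallest possible p is 0.0286 for 4 against 4 libraries and 0.10 for 3 against 3. Gad1 made up 58.2% ± 1.17 (SD, n = 4) of Gad1 plus Gad2 per kb in naive AKR and 57.5% ± 1.07 (SD, n = 4) in naive B6N, with an exact p of 0.343. After OFL the shares were 58.6% ± 0.781 (SD, n = 3) and 59.7% ± 0.991 (SD, n = 3), with an exact p of 0.20. Over all 14 libraries the share lay between 56.4% and 60.3%. The sizes of this share and of the ratios below depend on the exon lengths used.

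The 3 other ratios separated the strains without overlap in each condition. With these numbers of libraries, no ratio could reach an adjusted p under 0.05 over the 8 tests. That none passed after adjustment therefore says nothing about the ratios. The log2 ratio of Slc32a1 to Gad1 plus Gad2 was -1.43 ± 0.14 (SD, n = 4) in naive AKR and -1.65 ± 0.05 (SD, n = 4) in naive B6N, without overlap, with an exact p of 0.0286 and an adjusted p of 0.0762. After OFL it was -2.49 ± 0.08 (SD, n = 3) in AKR and -2.68 ± 0.09 (SD, n = 3) in B6N, with the lowest AKR library at -2.57 and the highest B6N library at -2.58, and an exact p of 0.10. The ratio of Aldh5a1 to Abat, the later over the earlier breakdown enzyme, was -0.74 ± 0.03 (SD, n = 4) in naive AKR and -1.16 ± 0.04 (SD, n = 4) in naive B6N. After OFL it was -0.37 ± 0.06 (SD, n = 3) and -0.75 ± 0.04 (SD, n = 3). The ratio of Slc6a11 to Abat, uptake over breakdown, was 0.53 ± 0.05 (SD, n = 4) in naive AKR and -0.01 ± 0.04 (SD, n = 4) in naive B6N. After OFL this ratio was -0.58 ± 0.09 (SD, n = 3) and -0.96 ± 0.06 (SD, n = 3). Both ratios have Abat as denominator, so the strain difference of Abat given above enters each, and they are not separate results. Each of the last 2 ratios had an exact p of 0.0286 (adjusted p 0.0762) in naive libraries and 0.10 (adjusted p 0.133) after OFL. Those exact p-values were the smallest the numbers allow.

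**Figure D3:**
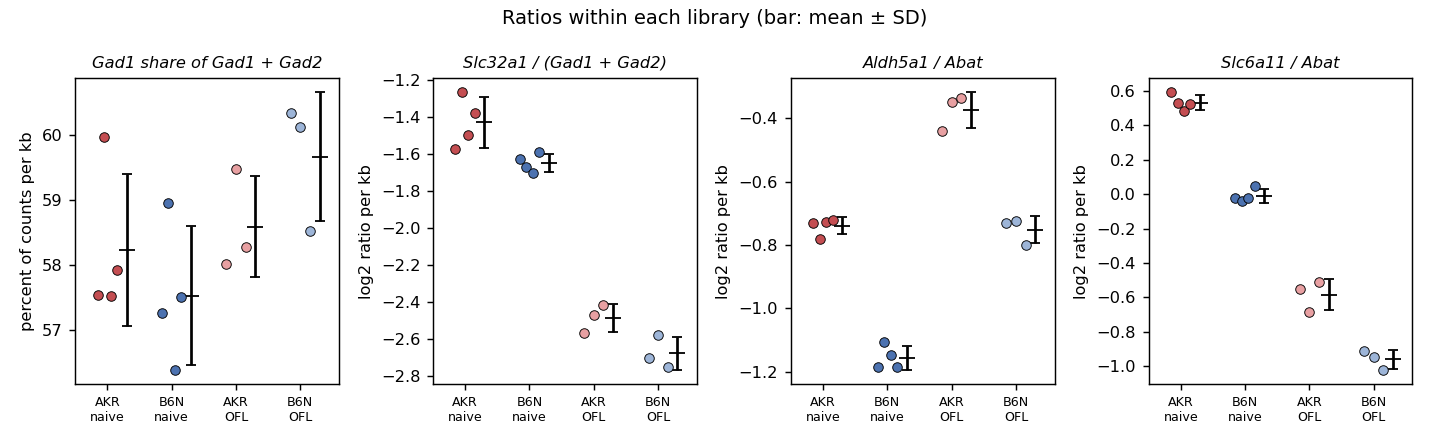
Ratios between members in each library, from counts per kb of exon (percent for the share of Gad1, log2 for the other 3 panels), with the mean ± SD of 4 naive or 3 OFL libraries. The Gad1 share overlaps between strains, while the other ratios are higher in every AKR library than in any B6N library of the same condition.

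The wider pathway was described by 28 further genes in 5 lists. In naive libraries 7 were higher and 7 lower in AKR (median log2 difference 0.05, against 0.01 over all genes tested). Among all genes tested, 18.3% were called higher and 19.5% lower there. After OFL 1 was higher and 3 were lower (median 0.06 against 0.00), beside 7.5% higher and 8.86% lower among all genes. Among the 3 other carriers of GABA and related amino acids, Slc6a6, which carries taurine, was higher in naive AKR (0.31, adjusted p = 5.5e-06) and none was called after OFL. Of 9 genes that supply glutamate and glutamine, 3 were higher and 4 lower in naive AKR. The glutamine carrier genes Slc38a3 and Slc38a5 were higher, by 0.52 and 1.08, and Slc38a1, a form found in neurons, was lower at -0.20. After OFL Slc38a3 was higher at 0.32 and the transaminase gene Got1 lower at -0.21.

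Maob and Odc1 were lower in AKR in both conditions. Of 5 genes of other routes to GABA and succinate semialdehyde, 2 were lower in each condition. Maob, a monoamine oxidase that also acts in GABA formation from putrescine in astrocytes, was lower by 0.52 and 0.76 on the log2 scale (adjusted p = 2.0e-06 in naive and 7.4e-06 in OFL libraries). Odc1, which makes putrescine, differed by -0.30 and -0.41. Of 2 genes that bear on the supply of pyridoxal phosphate, the cofactor of the decarboxylases and of GABA transaminase, the kinase gene Pdxk was lower in naive AKR (-0.13) and the phosphatase gene Alpl higher (0.27), and neither was called after OFL (Pdxk at 0.15, adjusted p = 0.0563). On the succinate side of the citric acid cycle, 2 of 9 genes were higher in naive AKR, Suclg2 at 0.25 and Sdhc at 0.13. None was called after OFL, where the smallest p was that of Ogdh (0.11, adjusted p = 0.12).

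Between conditions, 3 of the 28 genes were higher and 21 lower in AKR, and 2 were higher and 22 lower in B6N, with medians of -0.33 and -0.31. The share of all genes called was 78.7% in AKR (38.8% lower) and 78.4% in B6N (38.4% lower). The neuronal glutamate carrier gene Slc1a1 was higher after OFL by 1.09 in AKR and 0.97 in B6N. Slc38a3 differed by -1.15 and -0.96. Aldh9a1, which oxidises aminobutyraldehyde to GABA, differed by -1.01 and -0.88, Maob by -0.91 and -0.69, and Akr7a5, a reductase of succinate semialdehyde, by -0.82 and -0.80. Of the 9 genes of the succinate side, 8 were lower in each strain, among them the succinate dehydrogenase genes Sdha (-0.33 and -0.35) and Sdhc (-0.52 and -0.47). The interaction was called for 2 of the 28, beside 5.15% of all genes, so the count is near the background. Both were higher, Slc38a1 (0.30, adjusted p = 0.0040) and Pdxk (0.28, adjusted p = 0.0045). Both were higher after OFL in AKR, by 0.16 each, and lower in B6N, at -0.15 and -0.13.

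**Figure D4:**
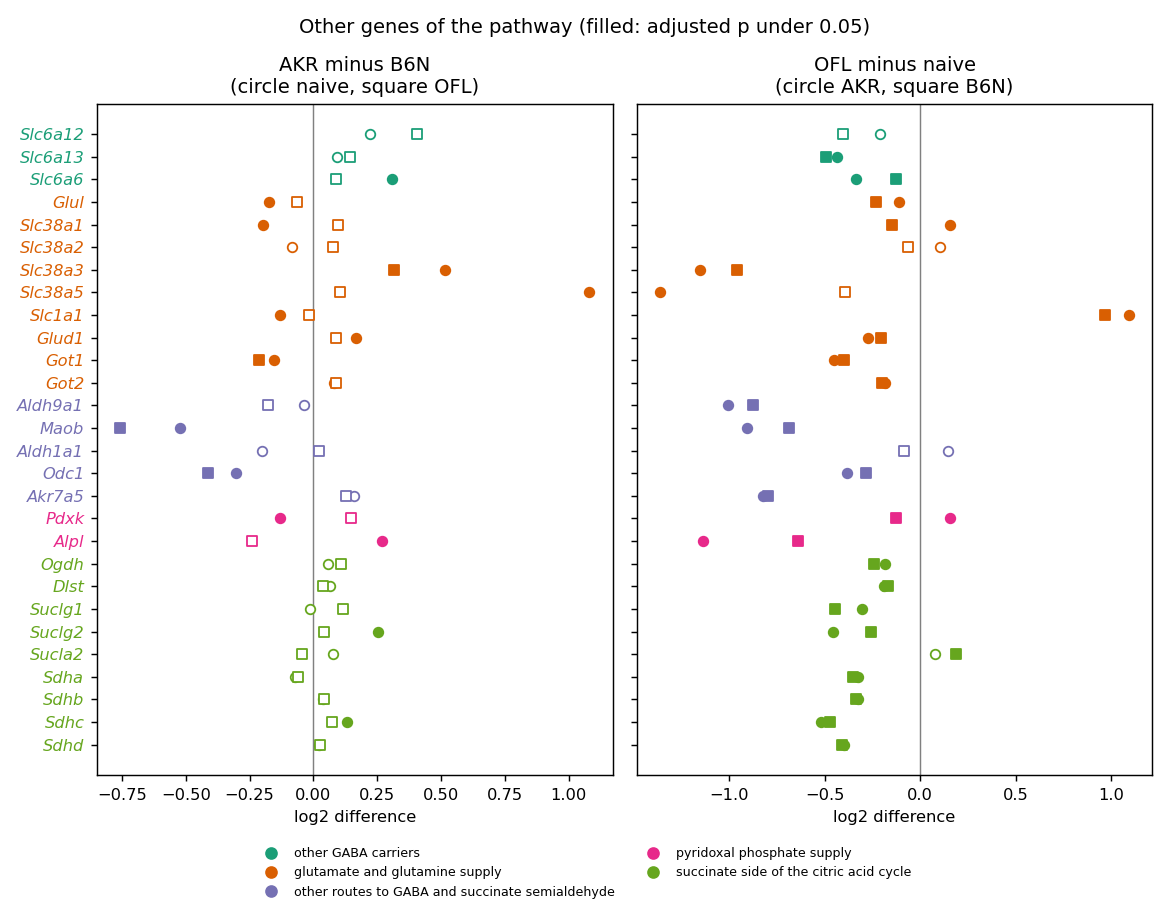
Log2 differences (horizontal axes) of 28 other genes of GABA metabolism, coloured by list: AKR minus B6N (circles naive, squares OFL) and OFL minus naive (circles AKR, squares B6N), filled where the adjusted p was under 0.05. Maob and Odc1 are lower in AKR in both conditions, and Slc1a1 is higher after OFL in both strains.

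Across the 14 libraries, with the mean of each condition subtracted from log2 CPM, Abat ran opposite to each other member, with Pearson r from -0.85 (Slc32a1) to -0.53 (Aldh5a1). All other pairs were positive, from 0.56 (Gad2 with Slc6a11) to 0.82 (Gad1 with Slc32a1). The genes most like each member on this scale, among 11398 protein-coding genes whose mean reached 5 CPM, were Pcp4l1 (r = 0.97), Tasp1 and Esrra for Gad1, Cfap300 (0.90), Idnk and Steap2 for Gad2, and Them6 (0.95), Fbxo31 and Tubg2 for Slc32a1. For Slc6a11 they were Slc38a3 (0.95), the glutamine carrier gene above, Igdcc4 and Col27a1. For Abat they were Zfp950 (0.995), Tbce and Fcrls, and for Aldh5a1 Pou3f2 (0.88), Usp13 and Commd10. These correlations describe 14 libraries of 2 strains. Only condition means were subtracted, so differences between the strains remain in every r, including those of Abat.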

How the data were processed

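RNA was measured in 14 libraries of anterior cingulate cortex. Per the submitters' processing notes, CASAVA, cutadapt 2.7, TopHat2 2.1.1, HTSeq and edgeR were used with GRCm38; the annotation release and strand setting are not given in the sources used here. The authors deposited 2 tables of raw counts per Ensembl gene, naive and OFL, which were the input. The authors also deposited CPM values per sample, from which whole reads (within 0.1) were recovered for 100% of values, with 0 genes differing from the counts.

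Counts were fitted with edgeR 4.0.16 (R 4.3.3, limma 3.58.1), with TMM scaling, its expression filter by group, the two-sided quasi-likelihood test and adjustment over all genes. Strains were compared within the 8 naive and the 6 OFL libraries, and conditions and the interaction in 1 fit of 14. DESeq2 1.42.0 was an alternative, and the fits were tested on simulated data. The common biological coefficient of variation was 0.0446 to 0.0456. Symbols, positions and exon lengths came from GENCODE on GRCm38 (53274 of 53465 identifiers named), and promoter windows from RefSeq.

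The members, gene lists and tests were chosen with earlier results of these data known. The text names all members and, per list and comparison, up to 3 called genes with the smallest p, or the 1 with the smallest p where none was called. Some genes allowed by that rule are left out. The 3 most alike genes per member were named by Pearson r. Cell type markers named singly were chosen after their values were seen. Of the listed genes, Pdxp matched no row, and 3 listed genes are not reported here.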

Additional observations from a re-analysis of the deposited data

Results flagged for a closer look

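In naive AKR, 1 library stood apart from the other 3 in each of 2 ratios, and it was replicate 2 both times. Its Gad1 share of Gad1 plus Gad2 per kb was 60.0%, against 57.5% to 57.9% in the other 3, a gap of 0.833 of the group's range. Its log2 ratio of Aldh5a1 to Abat was -0.78, against -0.73 to -0.72, a gap of 0.849 of the range. Both gaps were above Dixon's 95% critical value for 4 samples. Of 20 groups of 4 libraries tested, chance alone gives about 1 in 20 such gaps.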

How the results depend on the processing

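Over the library scalings, filters, tests, inputs and samples tried, Slc32a1, Slc6a11 and Abat kept direction and call in the strain comparisons, and all members but Aldh5a1 did so between conditions. The naive Gad1 difference passed the threshold with upper-quartile factors (0.10, adjusted p = 0.0483) and with no count filter (0.09, adjusted p = 0.0496). Aldh5a1, OFL minus naive, passed in AKR with DESeq2 size factors (0.11, adjusted p = 0.0330), upper-quartile factors (0.12, adjusted p = 0.0215) and the DESeq2 test (0.11, adjusted p = 0.0383). In B6N it reversed to -0.00076 with no count filter. Leaving out a library, the number of all genes called between strains after OFL ranged from 1934 (without B6N OFL replicate 2) to 3514, against 2943 with all libraries. The uncalled interactions changed sign in 8 leave-one-out values of 3 genes, with values between -0.017 and 0.060 for Gad1, between -0.030 and 0.089 for Slc32a1 and between -0.0043 and 0.063 for Aldh5a1. The cause of these shifts was not tested. Replicate numbers did not pair the libraries (correlations of -0.07 to 0.06 between same-numbered libraries). With the replicate number as a block, 6229 genes were called in naive and 3021 in OFL libraries between strains, 15766 in AKR and 15722 in B6N between conditions, and 1013 for the interaction; the numbers of members called were unchanged at 3, 3, 5, 5 and 0. Slc32a1, with 332 to 472 counts in OFL libraries, was the member with the fewest counts and the widest interaction interval.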
